A study of Mus musculus with 4 samples.

Results

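Cell cycle genes were measured across the cell types of mouse gingiva in 4 single-cell RNA libraries. The set holds 40 genes, taken by symbol, and all 40 were among the 31253 gene rows of each matrix. Of these, 17 serve DNA replication in S phase and 23 serve mitosis or its approach. The 2 PD libraries came from gums of Itga9-Lyz2-cKO and Itga9-Lyz2-cHet mice 14 days after a silk ligature and Porphyromonas gingivalis were applied at an upper second molar, and the 2 control libraries came from mice of the same genotypes whose treatment is labelled control. In what follows they are called cHet PD, cHet control, cKO PD and cKO control. All 4 libraries therefore carry the Itga9-Lyz2 alleles, and a wild type was not analysed here. Lyz2 is active in neutrophils, monocytes and macrophages, so a recombinase driven by it is not restricted to macrophages. Each group is 1 library, the number, age and sex of the mice behind it are not given in the sources used here, and so no difference between groups could be tested: every interval below is a 95% interval that covers counting error only.

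A dividing cell copies its DNA in S phase and separates the copies in mitosis. S-phase genes such as the Mcm helicase subunits and the ribonucleotide reductase subunits Rrm1 and Rrm2 are switched on by E2F factors as cells leave G1, while genes such as Ccnb1, Cdc20 and Plk1 are held down by the DREAM complex until G2 and peak in mitosis. In stratified epithelium the dividing keratinocytes lie in the basal layer, and cells that move up from it stop dividing and differentiate. Mature neutrophils do not divide, whereas their precursors in bone marrow do.

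The promoters of the members are shown here because letters of the kinds that E2F factors and the DREAM complex read were not equally frequent in S-phase and mitotic members. RefSeq promoters (mouse build GRCm38.p6, 250 bases before to 50 after each start) were available for 34 of the 40 members, 14 of the S-phase and 20 of the mitotic ones, with 36 promoters in all because some genes have more than 1. An E2F-type match (the letters TTCCCGC, with the further forms TTCGCGC, then TTGCCGC, and then also TTGGCGC, on either strand) stood in 10 of 15 S-phase promoters, in 4 of 21 mitotic promoters and in 9.57% of all 32851 promoters. A CHR-type match (the letters TTTGAA, with the further form TTCGAA, on either strand), the element bound by DREAM, stood in 2 of 15 S-phase promoters, in 18 of 21 mitotic promoters and in 19.2% of all. The CCAAT box (CCAAT on either strand) was in 10 of 15, in 19 of 21 and in 37.4% of all, and CHR and CCAAT together were in 17 of 21 mitotic promoters against 7.52% of all. The 200 bases before the start are printed 5′ to 3′ on the gene's strand for the genes that the epithelial results turn on, with matches of the 3 kinds in capitals, overlapping matches run together. Mcm5 (chr8:75109309-75109508, plus strand) and Mcm6 (chr1:128359706-128359905, minus strand) are S-phase genes. Ccnb2 (chr9:70421555-70421754, minus), Cdc20 (chr4:118437344-118437543, minus), Cenpa (chr5:30666686-30666885, plus) and Top2a (chr11:99024190-99024389, minus) are mitotic ones. In the printed stretch Mcm5 and Mcm6 show E2F-type and CCAAT letters, and Ccnb2, Cdc20 and Top2a show CHR-type and CCAAT letters. Cenpa shows CCAAT letters only there, and its CHR-type match lies after the start, at bases 17 to 22. A match describes these letters and is not a measured binding site.
Mcm5: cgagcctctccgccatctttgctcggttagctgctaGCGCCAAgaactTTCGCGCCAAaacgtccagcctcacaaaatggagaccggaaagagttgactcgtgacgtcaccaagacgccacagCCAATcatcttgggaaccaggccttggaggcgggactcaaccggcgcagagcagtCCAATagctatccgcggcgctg
Mcm6: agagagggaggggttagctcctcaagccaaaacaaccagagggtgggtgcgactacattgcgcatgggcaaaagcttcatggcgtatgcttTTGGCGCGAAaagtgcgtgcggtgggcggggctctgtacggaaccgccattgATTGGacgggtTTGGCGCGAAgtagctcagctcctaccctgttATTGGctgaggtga
Ccnb2: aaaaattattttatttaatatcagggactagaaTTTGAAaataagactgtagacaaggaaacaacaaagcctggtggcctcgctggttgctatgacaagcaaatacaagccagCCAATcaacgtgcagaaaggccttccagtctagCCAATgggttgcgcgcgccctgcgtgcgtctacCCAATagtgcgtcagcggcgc
Cdc20: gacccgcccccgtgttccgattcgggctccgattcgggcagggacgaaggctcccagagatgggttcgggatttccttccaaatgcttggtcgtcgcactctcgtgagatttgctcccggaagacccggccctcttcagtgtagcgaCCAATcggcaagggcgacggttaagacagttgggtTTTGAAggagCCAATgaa
Cenpa: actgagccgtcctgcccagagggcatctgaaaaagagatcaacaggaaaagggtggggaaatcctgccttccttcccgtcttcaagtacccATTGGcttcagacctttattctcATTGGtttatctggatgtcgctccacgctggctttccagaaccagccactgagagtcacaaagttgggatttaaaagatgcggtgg
Top2a: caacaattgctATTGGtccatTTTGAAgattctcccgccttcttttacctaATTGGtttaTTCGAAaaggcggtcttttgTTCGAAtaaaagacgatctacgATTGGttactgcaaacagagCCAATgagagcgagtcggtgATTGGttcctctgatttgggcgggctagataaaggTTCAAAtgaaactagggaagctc

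The libraries held 6684 to 9331 barcodes, and 6595 to 8967 cells were kept in each. Barcodes shared by any pair of libraries numbered 65 to 116. The PD libraries reached down to 500 UMIs per barcode while every barcode of the control libraries was above 1500, so PD and this depth floor cannot be told apart, and shares of cells were therefore computed after every cell was thinned to 1500 UMIs and shallower cells were left out. This removed 33.7% of the kept cells of cHet PD, 24.8% of cKO PD and none of the control cells. Cells were put in a class when they held at least 3 of its 12 markers and at least 2 more than of any other class, which gave a class to 89.6 to 97.7% of the cells of a library. The 12 epithelial markers were all detected in each library, and cells gated as cartilage or gland were also present in 3 of the 4, all but cHet PD. Itga9, the targeted gene, had 22.3 CPM (7 UMIs) in the phagocytes of cKO PD against 95.2 CPM (91 UMIs) in those of cHet PD, and 44.9 CPM (17 UMIs) in those of cKO control against 150 CPM (45 UMIs) in those of cHet control. Over all phagocytes it was lower in both cKO libraries. All 7 UMIs of cKO PD lay in the resident macrophage sub-gate, which held 26 of the 81 phagocytes of cKO PD against 98 of the 185 of cHet PD, and there the levels were 72.5 CPM (29.2 to 149) in cKO PD against 105 CPM (80.4 to 135) in cHet PD, with intervals that overlap. In resident macrophages of the controls Itga9 was at 54.6 CPM (31.8 to 87.5) in cKO against 173 CPM (126 to 231) in cHet. Those intervals do not overlap. In neutrophils Itga9 had 0 or 1 UMI in every library, which checks nothing there.

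Epithelial cells carried most of the cell cycle transcripts. They made up 68.9% of the cells of cHet PD, 91.3% of cHet control, 66.5% of cKO PD and 89.4% of cKO control, and held 81.4%, 95.5%, 72.8% and 97.4% of the mitotic UMIs of those libraries. Of all UMIs they held 80.6%, 91.5%, 73.9% and 88.6%, and of the S-phase UMIs 72.5%, 92.8%, 66.3% and 93.1%. In the PD libraries the mitotic share thus lay close to the share of all UMIs and the S-phase share below it. In the controls both lay above it. Levels below are CPM, the share of all UMIs (unique molecules) of a class in a library scaled to 1000000, added over the members of a set. The mitotic set summed to 1020 CPM (1009 to 1032) in epithelial cells of cHet PD against 736 CPM (728 to 744) in cHet control, a ratio of 1.39 (1.36 to 1.41). It summed to 927 CPM (912 to 943) in cKO PD against 1025 CPM (1016 to 1034) in cKO control, a ratio of 0.905 (0.888 to 0.922). The cHet control library was therefore the low one of the 4, and the other 3 lay within 927 to 1025 CPM. The S-phase set summed to 483 CPM in cHet PD against 605 CPM in cHet control, and to 600 CPM in cKO PD against 610 CPM in cKO control. Here cHet PD was the low library, and the other 3 differed by little.

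Setting the sets against each other separated the libraries further. Epithelial cells held 0.47 S-phase UMIs per mitotic UMI in cHet PD (0.46 to 0.48) against 0.82 in cHet control (0.81 to 0.83), and 0.65 in cKO PD (0.63 to 0.66) against 0.60 in cKO control (0.59 to 0.60). PD thus went with a lower S-phase to mitotic balance in cHet and with a slightly higher one in cKO. The order of the 4 libraries, cHet control highest and cHet PD lowest, was also found in basal cells. With trimmed-mean (TMM) scaling, which moved the epithelial cHet comparison by 0.13 on the log2 scale, the S-phase log2 ratio of cHet PD over cHet control was -0.20 in place of -0.33, and the mitotic one 0.60 in place of 0.47.

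**Figure D1:**
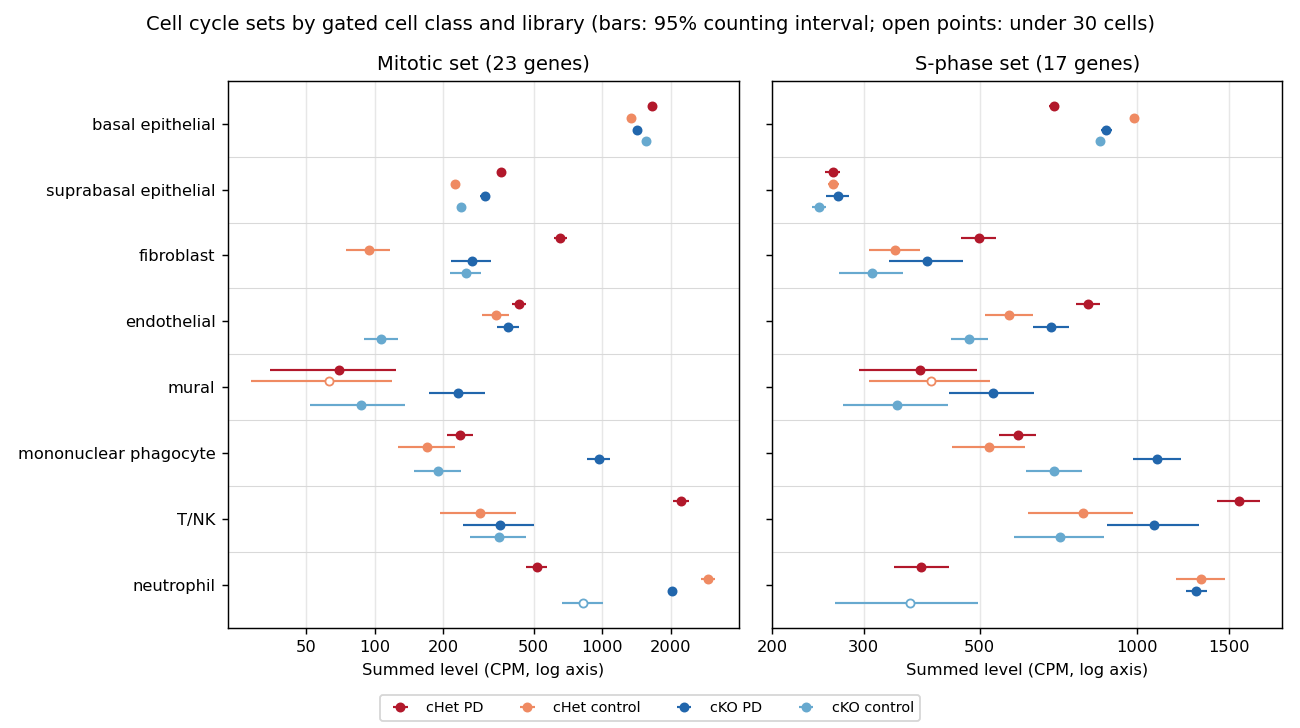
Summed CPM of the mitotic set (left, log axis) and of the S-phase set (right, log axis) in each gated class, with 1 point per library and bars for the 95% counting interval; open points are classes with under 30 cells. Basal epithelial cells lie right of suprabasal ones in both panels, T/NK cells of cHet PD (2219 CPM) lie far right of the other 3 libraries in the mitotic panel, and the neutrophils of cKO PD (2020 CPM) lie right of those of cHet PD (516 CPM).

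The transcripts lay mainly in the basal layer, as sub-gates by 10 basal and 10 suprabasal markers showed. Summed mitotic levels in basal cells were 1661 CPM in cHet PD against 1341 CPM in cHet control, and 1424 CPM in cKO PD against 1550 CPM in cKO control. In suprabasal cells they were 358 CPM in cHet PD against 224 CPM in cHet control, and 304 CPM in cKO PD against 240 CPM in cKO control. The suprabasal ratio of PD over control was 1.60 (1.54 to 1.66) in cHet and 1.27 (1.2 to 1.34) in cKO, so that above the basal layer mitotic transcripts were higher in PD in both genotypes, whereas in the basal layer the ratio was 1.24 (1.22 to 1.26) in cHet and 0.918 (0.900 to 0.938) in cKO. S-phase levels in basal cells were 693 CPM in cHet PD against 987 CPM in cHet control, and 874 CPM in cKO PD against 851 CPM in cKO control. In suprabasal cells they lay between 246 and 267 CPM in all 4 libraries.

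Among single genes a size rule was used, met when 2 libraries differed at least 2-fold after 5 CPM were added to both. At least 20 UMIs over both libraries and a counting interval that left out a ratio of 1 were also required. Where UMIs are few, a member reaches 20 UMIs mainly through the library where it is higher. Counts among measured members then lean to that side. In epithelial cells of cHet PD against cHet control, 4 of the 40 members were higher by this rule, where 4.56% of all 15344 genes with enough UMIs were, and none was lower, where 5.01% were. The 4 were Cenpa, the centromeric histone, Ccnb2, a mitotic cyclin, Birc5, the survivin subunit of the chromosomal passenger complex, and Cdc20, the activator of the anaphase-promoting complex. No member met the rule in cKO PD against cKO control, where 2.30% of all genes were higher and 3.46% lower. None met it in cKO PD against cHet PD either (2.24% higher and 0.833% lower), nor in cKO control against cHet control (1.04% higher and 0.235% lower). Most members thus moved by less than 2-fold: in cHet, 20 of 23 mitotic members had a ratio above 1 and 15 of 17 S-phase members a ratio below it, with medians of 0.39 and -0.42 on the log2 scale against -0.06 over all genes. In cKO the median was -0.14 for the mitotic set, with 10 of 23 members above 1, and -0.13 for the S-phase set, with 6 of 17 above 1, against -0.04 over all genes.

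**Figure D2:**
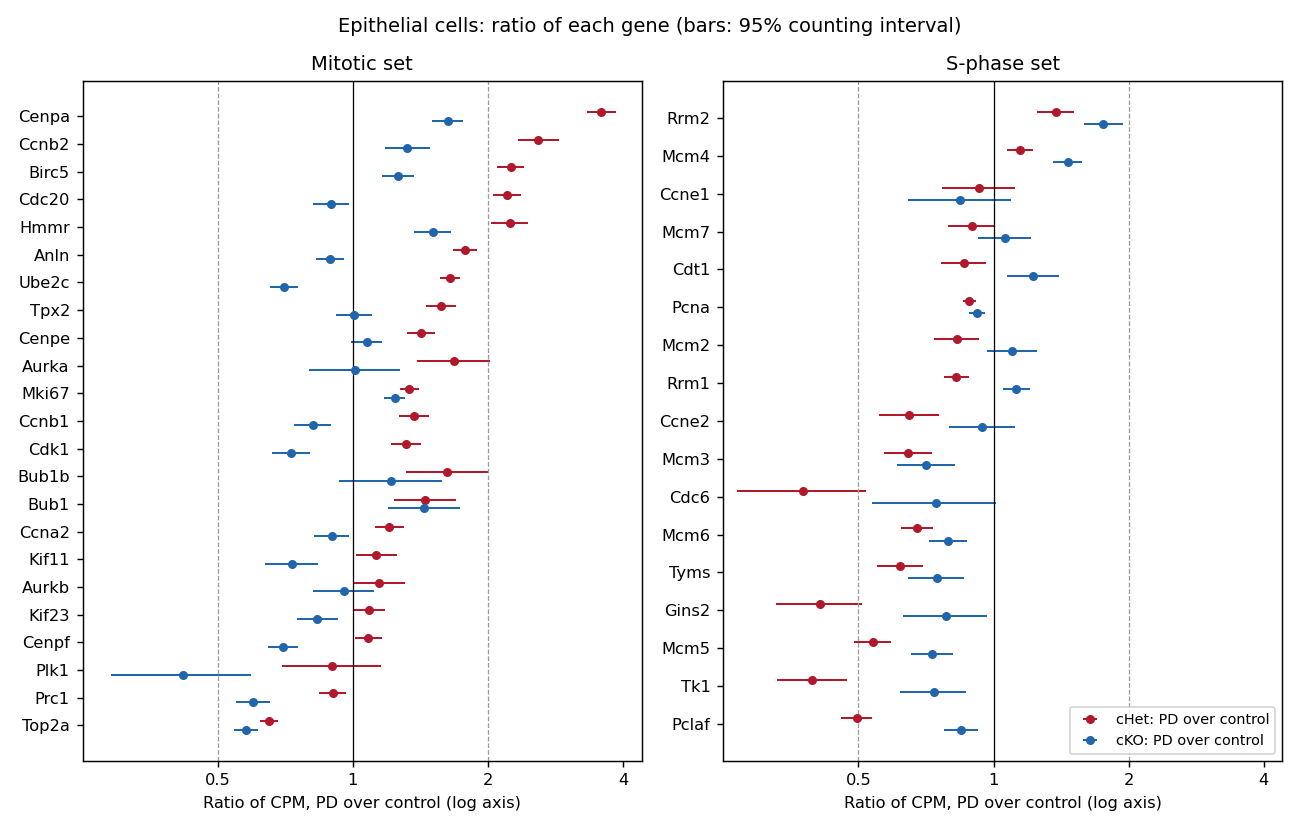
Ratio of CPM in epithelial cells, PD over control (log axis), of each mitotic member (left) and S-phase member (right), red for cHet and blue for cKO, with 95% counting intervals; dashed lines mark 0.5 and 2. In cHet the mitotic genes lie mostly right of 1 and the S-phase genes mostly left of it, Cenpa reaches 3.58, and Top2a and Prc1 lie left of 1 in both genotypes.

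Replication genes of basal cells are given first. Pcna, the sliding clamp of the replication fork, was at 229 CPM in cHet PD against 279 CPM in cHet control, and at 243 CPM in cKO PD against 262 CPM in cKO control. It made 27.8 to 33.0% of the S-phase UMIs of basal cells and 48.9 to 52.5% of those of suprabasal cells. Rrm1, the large subunit of ribonucleotide reductase, was at 73.0 CPM in cHet PD against 104 CPM in cHet control, and at 104 CPM in cKO PD against 89.7 CPM in cKO control. Pclaf, the PCNA clamp-associated factor, had 43.6 CPM in cHet PD against 101 CPM in cHet control, and 62.8 CPM in cKO PD against 73.7 CPM in cKO control. These 3 genes were lowest in cHet PD.

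Mcm4 and Rrm2 went the other way. Mcm4, a helicase subunit, was at 79.4 CPM in cHet PD against 77.4 CPM in cHet control, and at 103 CPM in cKO PD against 66.3 CPM in cKO control. Rrm2, the small subunit of the reductase, had 41.9 CPM in cHet PD against 34.9 CPM in cHet control, and 64.1 CPM in cKO PD against 33.4 CPM in cKO control. In both genotypes the PD library was the higher one for these 2 genes, and Mcm4 and Rrm2 were the S-phase members with a ratio above 1 in both genotypes over all epithelial cells. Of the helicase subunits, Mcm5 had 30.3 CPM in cHet PD against 67 CPM in cHet control, a ratio of 0.452 (0.404 to 0.505), and 45 CPM in cKO PD against 55.2 CPM in cKO control.

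In basal cells of cHet PD against cHet control, Mcm5, Pclaf and the thymidine kinase Tk1 were lower by the size rule, where 6.06% of all genes were, and Ccnb2 and Cenpa were higher, where 6.16% were. Tk1 was at 8.75 CPM in cHet PD against 24.9 CPM in cHet control, and at 17 CPM in cKO PD against 23.5 CPM in cKO control. The licensing factor Cdc6 was at 2.35 CPM in cHet PD against 7.03 CPM in cHet control, and at 5.29 CPM in cKO PD against 5.93 CPM in cKO control. The E-type cyclins that drive the entry into S phase are given next: Ccne1 was at 7.42 CPM in cHet PD against 10.2 CPM in cHet control, and at 6.52 CPM in cKO PD against 8.49 CPM in cKO control. The other E-type cyclin, Ccne2, was at 11.9 CPM in cHet PD against 21.4 CPM in cHet control, and at 17 CPM in cKO PD against 17.4 CPM in cKO control. No basal member met the rule in cKO PD against cKO control, where 3.23% of genes were higher and 4.15% lower. In cKO PD against cHet PD, with 3.0% of genes higher and 0.830% lower, there was none either, and in cKO control against cHet control, with 1.71% higher and 0.109% lower, there was again none.

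Of the mitotic genes of basal cells, those with a shared direction come first. Top2a, the topoisomerase that untangles sister chromatids, was at 141 CPM in cHet PD against 240 CPM in cHet control, and at 120 CPM in cKO PD against 207 CPM in cKO control. Prc1, which bundles microtubules of the midzone, was at 69.4 CPM in cHet PD against 85.4 CPM in cHet control, and at 59.3 CPM in cKO PD against 98.0 CPM in cKO control. Both were lower in PD in both genotypes. Cenpa was at 124 CPM in cHet PD against 39.5 CPM in cHet control, and at 94.6 CPM in cKO PD against 58.5 CPM in cKO control. The proliferation marker Mki67 was at 164 CPM in cHet PD against 138 CPM in cHet control, and at 190 CPM in cKO PD against 148 CPM in cKO control. Birc5 was at 99.9 CPM in cHet PD against 52.5 CPM in cHet control, and at 78.8 CPM in cKO PD against 62.7 CPM in cKO control. These 3, with Hmmr and Ccnb2, had higher levels in PD in both genotypes.

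The genes given next had ratios on different sides of 1 in the genotypes, or no difference in one of them. Ube2c, the ubiquitin-conjugating partner of the anaphase-promoting complex, was at 166 CPM in cHet PD against 112 CPM in cHet control, and at 89.0 CPM in cKO PD against 132 CPM in cKO control. Anln, a scaffold of the cleavage furrow, had 120 CPM in cHet PD against 75.6 CPM in cHet control, and 98.7 CPM in cKO PD against 105 CPM in cKO control. Cenpf, a kinetochore protein, had 80.8 CPM in both cHet libraries, and 87.5 CPM in cKO PD against 120 CPM in cKO control.

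The other members are given here for basal cells. Of the mitotic cyclins and their kinase, Ccnb2 was at 46.4 CPM in cHet PD against 19.6 CPM in cHet control, and at 42.5 CPM in cKO PD against 31.6 CPM in cKO control. Ccnb1 was at 64.9 CPM in cHet PD against 51.6 CPM in cHet control, and at 54.2 CPM in cKO PD against 65.2 CPM in cKO control, and Cdk1, which both cyclins activate, lay between 51.3 and 69.3 CPM. Cdc20 was at 86.1 CPM in cHet PD against 45.5 CPM in cHet control, and at 56.2 CPM in cKO PD against 62.3 CPM in cKO control. Ccnb1 and Cdc20 thus differed in direction between the genotypes and Ccnb2 did not. The spindle factors Tpx2 and Hmmr lay at 50.2 to 71.4 CPM and 29.2 to 62.8 CPM, and the motors Cenpe, Kif11 and Kif23 at 62.6 to 83.6, 24.7 to 34.8 and 43.5 to 52.8 CPM. The mitotic kinases were given by their ranges, with Aurka at 7.97 to 12.3 CPM, Aurkb at 20.6 to 22.2 CPM and Plk1 at 3.69 to 8.79 CPM, while the checkpoint kinase Bub1 was at 11.7 to 16 CPM and its relative Bub1b at 6.43 to 9.77 CPM. Among the S-phase genes, Mcm6 was at 43.4 CPM in cHet PD against 76.8 CPM in cHet control, and at 52.8 CPM in cKO PD against 63.3 CPM in cKO control. The helicase subunits Mcm2, Mcm3 and Mcm7 lay at 24.5 to 34.8, 21.9 to 36.1 and 24.5 to 29.8 CPM, Tyms, the thymidylate synthase, at 20.1 to 36.6 CPM, Gins2, a subunit of the replicative helicase, at 5.73 to 15.1 CPM and Cdt1, a licensing factor, at 25.1 to 33.6 CPM. In each of these 7 genes except Mcm7 the highest library was cHet control and the lowest cHet PD.

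The make-up of the mitotic set shows which differences were shared by both genotypes. Top2a made 8.50% of the mitotic UMIs of basal cells in cHet PD against 17.9% in cHet control, and 8.44% in cKO PD against 13.3% in cKO control. Cenpa made 7.50% in cHet PD against 2.94% in cHet control, and 6.65% in cKO PD against 3.77% in cKO control. For both genes both PD libraries lay on the same side of both controls. Birc5 made 6.01% in cHet PD against 3.92% in cHet control, and 5.53% in cKO PD against 4.04% in cKO control. Hmmr, a spindle assembly factor, made 3.52% in cHet PD against 2.17% in cHet control, and 4.41% in cKO PD against 2.64% in cKO control. Suprabasal cells showed the same picture, with Top2a at 7.48% in cHet PD against 16.6% in cHet control, and at 9.47% in cKO PD against 14.4% in cKO control. The members' log2 ratios of PD over control were set side by side in the 2 genotypes, which share no library. Over all 40 members they had a Pearson r of 0.53 and a Spearman rho of 0.48 in epithelial cells. In basal cells the values were 0.47 and 0.46, and over the 39 members measured in suprabasal cells 0.79 and 0.78. Outside the epithelium they were 0.59 and 0.46 over 7 members in phagocytes. They were -0.12 and -0.04 over 19 members in endothelial cells, and -0.48 and -0.09 over 6 in fibroblasts. These correlations are across genes, which are not independent, and each pair of libraries also shares its difference in depth floor.

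**Figure D3:**
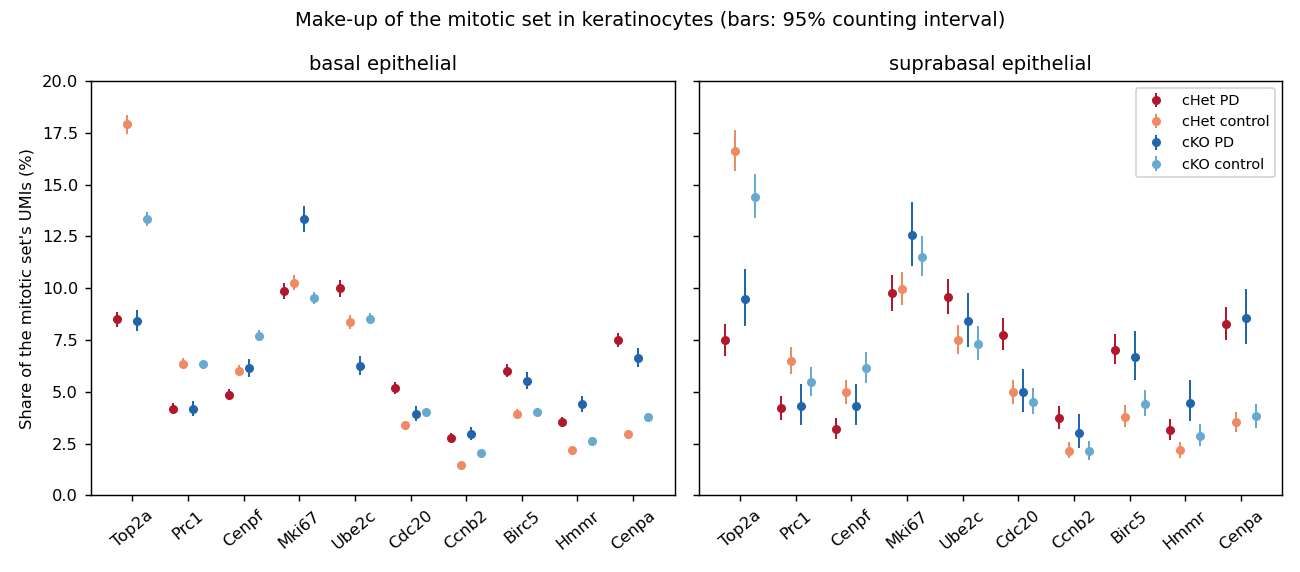
Share of the mitotic set's UMIs (percent) made by each of 10 mitotic genes in basal (left) and suprabasal (right) epithelial cells, 1 point per library, bars for the 95% counting interval. Top2a is lower and Cenpa is higher in both PD libraries than in both controls in both panels, for example 8.50% against 17.9% for Top2a in basal cells of cHet.

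The same shift was seen cell by cell at equal depth. Among basal cells thinned to 1500 UMIs that held at least 2 other mitotic members, Top2a was found in 36.6% of 557 cells of cHet PD against 64.6% of 443 cells of cHet control, and in 36.3% of 419 cells of cKO PD against 61.5% of 641 cells of cKO control. Cenpa was found in 46.5% of such cells of cHet PD against 21.8% of cHet control, and in 41.3% of cKO PD against 27.9% of cKO control. Mki67 was found in 52.9% of them in cHet PD against 52.0% in cHet control, and in 57.1% in cKO PD against 52.8% in cKO control. The share with Mki67 thus differed little between libraries, while those with Top2a and Cenpa separated PD from control. Some S-phase members went with the mitotic ones: over the 4 libraries Pclaf was found in 16.7 to 37.6% of basal cells with at least 2 mitotic members and in 0.646 to 1.36% of those with none. Pcna was found in 23.6 to 44.0% of the first and in 22.6 to 26.7% of the second.

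Cells were then counted. A cell was said to hold transcripts of a set when it had UMIs of at least 2 of its members after thinning. Mitotic transcripts were held by 22.3% of 2543 basal cells of cHet PD (20.7 to 24.0%) against 13.5% of 3574 of cHet control (12.4 to 14.7%), and by 21% of 2078 of cKO PD (19.2 to 22.8%) against 17.4% of 3945 of cKO control (16.2 to 18.6%). Without thinning the shares were 28.8% against 25.2% in cHet and 26.1% against 29.1% in cKO. For cKO the thinned share was higher in PD while the summed level was lower, so no order is read from it. S-phase transcripts were held by 18% of basal cells of cHet PD against 24.4% of cHet control, and by 24.6% of cKO PD against 23.1% of cKO control. Cells with mitotic but no S-phase transcripts were 16.8% of basal cells in cHet PD against 5.96% in cHet control, and 13% in cKO PD against 9.89% in cKO control. In cHet the cells with both made 5.51% in PD against 7.58% in control. Of the mitotic cells, 24.6% also held S-phase transcripts in cHet PD against 56.0% in cHet control, and 38.1% in cKO PD against 43.1% in cKO control.

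As a background, neutrophils without transcripts of immature stages held mitotic transcripts in 1 of 30 cells of cHet PD (3.33%, 0.0844 to 17.2%), the library with enough such cells, with a median of 949 UMIs before thinning against 4164 in basal cells. Suprabasal cells held them in 7.10% of cells of cHet PD against 3.94% of cHet control, and in 5.48% of cKO PD against 4.68% of cKO control. These shares and that of basal cells of cHet control lie inside the interval of the background. The other 3 basal shares lie above it, but the counting interval of the cKO control share reaches into it. With 30 cells that interval is wide, so a share inside it is not shown to be background. Control endothelial cells and fibroblasts, given further below, had upper limits of 2.88 to 7.32%, under the basal share of cHet control.

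**Figure D4:**
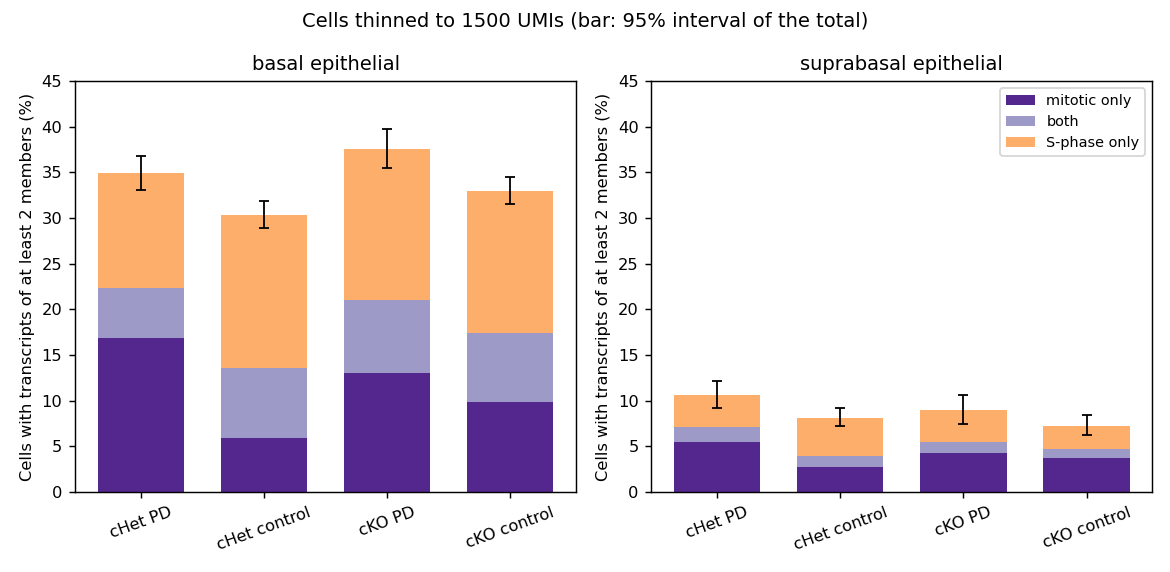
Percent of basal (left) and suprabasal (right) epithelial cells, each thinned to 1500 UMIs, with transcripts of mitotic members only, of both sets and of S-phase members only, stacked, for the 4 libraries; the error bar is the 95% interval of the whole column. The part with mitotic transcripts only is larger in cHet PD (16.8%) than in cHet control (5.96%) of the basal panel, and suprabasal columns are lower throughout.

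In suprabasal cells, 3 members were higher by the size rule in cHet PD against cHet control, where 4.39% of all genes were higher and 5.79% lower, and 1 in cKO PD against cKO control, where 2.46% were higher and 3.65% lower. Cenpa met it in both genotypes, at 29.6 CPM in cHet PD against 7.91 CPM in cHet control and at 26.1 CPM in cKO PD against 9.15 CPM in cKO control. Birc5 had 25.2 CPM in cHet PD against 8.55 CPM in cHet control, and 20.3 CPM in cKO PD against 10.6 CPM in cKO control. Cdc20 had 27.8 CPM in cHet PD against 11.2 CPM in cHet control, and 15.2 CPM in cKO PD against 10.9 CPM in cKO control. All 3 genes act at or near the centromere or at anaphase onset, and each was higher in PD in both genotypes. Between the genotypes no suprabasal member met the rule, neither in cKO PD against cHet PD (1.61% of genes higher, 1.23% lower) nor in cKO control against cHet control (0.205% higher, 0.374% lower).

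The remaining named suprabasal genes did not meet the rule. Top2a was at 26.8 CPM in cHet PD against 37.3 CPM in cHet control, and at 28.8 CPM in cKO PD against 34.6 CPM in cKO control. Mki67 was at 34.9 CPM in cHet PD against 22.4 CPM in cHet control, and at 38.2 CPM in cKO PD against 27.7 CPM in cKO control. Ube2c was at 34.3 CPM in cHet PD against 16.8 CPM in cHet control, and at 25.6 CPM in cKO PD against 17.6 CPM in cKO control. Mki67 and Ube2c were higher and Top2a lower in both PD libraries. Pcna stood at 125 to 138 CPM in all 4 libraries, and Rrm1 at 21.5 to 28.6 CPM. Ccne1 was at 5.27 CPM in cHet PD against 3.17 CPM in cHet control, and Ccne2 and Cdc6 did not exceed 5.28 CPM in any library.

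Genes around the cycle were read from 4 further lists. Of 27 other replication genes, 6 were lower by the size rule in basal cells of cHet PD against cHet control and none was higher, where 6.06% of all genes were lower and 6.16% higher, with a median log2 ratio of -0.78 against -0.08 over all genes. Lig1, the ligase that joins Okazaki fragments, was at 15.6 CPM in cHet PD against 73.7 CPM in cHet control, and Chaf1b, a subunit of the chromatin assembly factor, at 2.06 CPM against 18.9 CPM. In cKO 1 of the 27 was lower, where 4.15% of all genes were: Chaf1b, at 3.69 CPM in PD against 13.7 CPM in control, and the median was -0.07 against -0.04. Of 35 other mitotic genes 1 was higher in cHet, a smaller share than the 6.16% of all genes: Racgap1, a centralspindlin subunit, at 65.6 CPM in PD against 26.1 CPM in control, and none in cKO, where 3.23% of all genes were.

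Among 17 inhibitors and genes of quiescence, 3 were higher in cHet, where 6.16% of all genes were, and 1 in cKO, where 3.23% were. Gadd45a, a damage-induced arrest gene, was higher in PD in basal cells of both genotypes, at 151 CPM in cHet PD against 28.3 CPM in cHet control, and at 131 CPM in cKO PD against 42.1 CPM in cKO control. Cdkn2b, an inhibitor of Cdk4 and Cdk6, was at 11.8 CPM in cHet PD against 2.20 CPM in cHet control. Cdkn1a, the p21 inhibitor, was at 137 CPM in cHet PD against 83.9 CPM in cHet control, and at 126 CPM in both cKO libraries. Of 14 G1 cyclins, kinases and E2F or MYC factors, 3 were lower in cHet, where 6.06% of all genes were, with Ccnd3 at 21.3 CPM in cHet PD against 65.3 CPM in cHet control. Ccnd1, which starts G1 progression, was at 292 CPM in cHet PD against 455 CPM in cHet control, and at 345 CPM in cKO PD against 483 CPM in cKO control. Myc was at 456 CPM in cHet PD against 347 CPM in cHet control, and at 226 CPM in cKO PD against 282 CPM in cKO control. Neither Ccnd1 nor Myc met the rule for PD over control in basal cells.

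T and NK cells of cHet PD held far more mitotic transcripts than those of the other libraries. The mitotic set summed to 2219 CPM (2048 to 2400) in 139 cells of cHet PD against 290 CPM (193 to 419) in 33 cells of cHet control, and to 356 CPM (244 to 503) in 62 cells of cKO PD against 353 CPM (263 to 464) in 39 cells of cKO control. The S-phase set summed to 1567 CPM in cHet PD against 787 CPM in cHet control, and to 1080 CPM in cKO PD against 712 CPM in cKO control. Mitotic transcripts were held by 31.7% of 82 thinned cells of cHet PD (21.9 to 42.9%) against 3.03% of 33 of cHet control (0.0767 to 15.8%), and by 5.56% of 18 of cKO PD (0.141 to 27.3%) against 7.69% of 39 of cKO control (1.62 to 20.9%). Median depths before thinning were 1642, 2888, 1186 and 3757 UMIs in the same order, and of the 18 cells of cKO PD only 1 held mitotic transcripts.

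Single genes of T and NK cells are given next. Top2a was at 456 CPM in cHet PD against 41.4 CPM in cHet control, and at 66.8 CPM in cKO PD against 41.5 CPM in cKO control. Mki67 was at 399 CPM in cHet PD against 104 CPM in cHet control, and at 66.8 CPM in cKO PD against 41.5 CPM in cKO control. Cenpa was at 264 CPM in cHet PD against 51.8 CPM in cHet control, and at 111 CPM in cKO PD against 104 CPM in cKO control. For each of these 3 genes cHet PD was the high library. Ube2c had 44 UMIs in cHet PD and 0 in cHet control, and none in cKO PD. Prc1 was at 89.0 CPM in cHet PD against 20.7 CPM in cHet control, and Kif23, a midzone kinesin, at 118 CPM against 20.7 CPM. These 3 genes of anaphase and cytokinesis had higher levels in cHet PD than in cHet control. Pcna was at 623 CPM in cHet PD against 476 CPM in cHet control, and at 390 CPM in cKO PD against 463 CPM in cKO control. Mcm6 was at 146 CPM in cHet PD against 62.1 CPM in cHet control, and at 22.3 CPM in cKO PD against 41.5 CPM in cKO control. Rrm1 and Mcm4 were at 107 and 110 CPM in cHet PD, and Cdc6, Ccne1 and Ccne2 did not exceed 21.4 CPM in any library.

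By the size rule 11 members were higher in T and NK cells of cHet PD against cHet control, where 9.25% of 3536 genes were, out of 17 members with enough UMIs, and none was lower, where 6.90% were. For cKO PD against cKO control none of 2 met it, where 9.96% of genes were higher and 7.92% lower, and between the controls none of 2 did, where 3.58% were higher and 4.68% lower. In cKO PD against cHet PD 9 of 17 were lower, where 3.88% of genes were, and none was higher, where 3.07% were; with a stricter gate 5 were lower. Mitotic members among them numbered 9 and 8. With cells of at most 1 epithelial marker the sum in cHet PD was 1627 CPM (1438 to 1834) over 95 cells, and the cell richest in mitotic UMIs held 11.9% of them. Of 9 other mitotic genes with enough UMIs, 5 were higher in cHet PD against cHet control and 1 was lower, where 9.25% of all genes were higher and 6.90% lower, with Kif15 at 96.2 CPM in cHet PD and 0 UMIs in cHet control. Btg2, an antiproliferative gene, was at 185 CPM in cHet PD against 983 CPM in cHet control, and at 200 CPM in cKO PD against 1480 CPM in cKO control, and Btg1 was at 3433 CPM in cHet PD against 1460 CPM in cHet control. Cdkn1a was at 200 CPM in cKO PD against 574 CPM in cKO control, past the rule. Myc was at 22.3 CPM in cKO PD against 92.6 CPM in cHet PD, also past it, while Ccnd1 had too few UMIs.

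Mononuclear phagocytes, taken as 1 class, held more of both sets in cKO PD than in the other 3 libraries. In cKO PD 239 of their 302 mitotic UMIs lay in cells gated further as monocytes. Mitotic members together reached 964 CPM (858 to 1079) in 81 cells of cKO PD against 238 CPM (208 to 271) in 185 cells of cHet PD, a ratio of 4.06 (3.40 to 4.84). In control phagocytes the set summed to 190 CPM in 55 cells of cKO control against 171 CPM in 40 cells of cHet control. Mitotic transcripts were held by 20.0% of 75 thinned cells of cKO PD (11.6 to 30.8%) against 2.86% of 175 of cHet PD (0.934 to 6.54%), at median depths of 3339 and 4453 UMIs. Control phagocytes held them in 1 of 55 cells of cKO control and in 0 of 40 cells of cHet control, where the upper limit of the interval was 8.81%.

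Phagocyte genes that led the sets are given across the PD libraries. Mki67 was at 185 CPM in cKO PD against 102 CPM in cHet PD, Top2a at 160 CPM against 29.3 CPM and Ube2c at 128 CPM against 8.37 CPM. Cenpa was at 95.7 CPM in cKO PD against 49.2 CPM in cHet PD. In cHet PD 42.7% of the 227 mitotic UMIs were Mki67 and 20.7% were Cenpa, so its level rested on few genes. Birc5 was at 70.2 CPM in cKO PD against 1.05 CPM in cHet PD, Kif23 at 25.5 CPM against 3.14 CPM and Pclaf at 134 CPM against 10.5 CPM. Pcna, at 421 CPM in cKO PD against 392 CPM in cHet PD, and Cdt1, at 60.6 CPM against 62.8 CPM, differed little. Rrm1 was at 73.4 CPM in cKO PD against 18.8 CPM in cHet PD. Cdc6 was at 12.8 CPM against 1.05 CPM, and the E-type cyclins did not exceed 6.38 CPM.

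Phagocytes had 10 of 15 measured members higher in cKO PD than in cHet PD by the size rule, where 6.62% of 6024 genes were, and none was lower, where 5.64% were. The count was 3 with a gate stricter by 1 marker and 22 with no filter on UMIs. In cKO PD against cKO control 9 of 14 were higher, where 13.3% of genes were, and none was lower, where 13.6% were. For cHet PD against cHet control 2 of 7 were higher, Mcm4 and Mki67, where 11.3% of genes were, and none was lower, where 14.6% were. None met it between the controls, where 3.74% of genes were higher and 5.05% lower. Primary granule transcripts (Elane, Mpo, Prtn3, Ctsg), which early granulocyte precursors hold, moved with this result. They summed to 249 CPM in phagocytes of cKO PD against 2.09 CPM in cHet PD. Mast cells of cKO PD had them too, at 2015 CPM, so they do not by themselves name a cell type. The 8 phagocytes of cKO PD with such a UMI had 2410 mitotic CPM, and without them the level was 685 CPM (589 to 793) in 73 cells of cKO PD against 188 CPM in 183 cells of cHet PD, with mitotic transcripts in 9 of 67 thinned cells against 3 of 173. The S-phase level of the same cells was 700 CPM (603 to 809) in cKO PD against 546 CPM (499 to 595) in cHet PD, in place of 1095 and 591 CPM with all phagocytes. The part of these cells in the rest of the difference was not tested. Cells gated further as monocytes had 1246 CPM in 50 cells of cKO PD against 393 CPM in 63 cells of cHet PD, with 5 of 10 measured members higher (Rrm1, Rrm2, Pclaf, Top2a and Ube2c), where 7.36% of genes were higher and 8.81% lower. All 8 phagocytes of cKO PD with a primary granule UMI were among these monocytes and held 122 of their 239 mitotic and 159 of their 248 S-phase UMIs. Without such cells the monocytes had 829 mitotic CPM in cKO PD against 211 CPM in cHet PD. Their S-phase level was 630 CPM (506 to 776) in cKO PD against 542 CPM (453 to 644) in cHet PD. Resident macrophages of cKO PD held 56 mitotic UMIs in 26 cells, 80.4% of them in 1 cell. Without the richest cell they had 125 CPM, against 173 CPM in the 98 cells of cHet PD treated alike. With under 30 cells in cKO PD this sub-gate was not compared further, and the higher level is not shown for it.

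G1 and inhibitor genes of phagocytes are given next. Of 8 G1 genes with enough UMIs 4 were higher in cKO PD against cHet PD, where 6.62% of all genes were, led by E2f2 at 54.3 CPM against 9.42 CPM and E2f8 at 41.5 CPM against 7.33 CPM, and 4 of 6 other mitotic genes with enough UMIs were higher, led by Cks1b at 57.4 CPM against 8.37 CPM. Btg2 was at 76.6 CPM in cKO PD against 1015 CPM in cKO control, and at 65.9 CPM in cHet PD against 846 CPM in cHet control. Btg1 was higher in PD in both genotypes, at 2866 CPM in cKO PD against 719 CPM in cKO control. Ccnd1 was lower in PD in both, at 12.8 CPM in cKO PD against 50.2 CPM in cKO control and at 22.0 CPM in cHet PD against 90.3 CPM in cHet control. Myc and Cdkn1a did not meet the rule in any of these comparisons.

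Neutrophils numbered 746 in cKO PD, 624 in cHet PD, 25 in cKO control and 37 in cHet control. Above 1500 UMIs, the depth floor of the controls, they numbered 336, 62, 25 and 37 in the same order. Most neutrophils of cHet PD therefore lay under that floor. Over all neutrophils the mitotic levels summed to 2020 CPM (1944 to 2097) in cKO PD against 516 CPM (464 to 572) in cHet PD. The S-phase set summed to 1299 CPM in cKO PD against 387 CPM in cHet PD. By the size rule 24 of 34 measured members were higher in cKO PD, where 15.0% of 6771 genes were, and none was lower, where 10.9% were. The size of the difference depended on depth: with cells above 1500 UMIs the levels were 2770 CPM in 336 cells of cKO PD against 1529 CPM in 62 cells of cHet PD, the log2 ratio was 0.86 in place of 1.97, and 7 members met the rule. Mitotic transcripts were held by 36.9% of those 336 cells of cKO PD (31.7 to 42.3%) against 12.9% of those 62 of cHet PD (5.74 to 23.9%).

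The immature sub-gate, which reads precursor transcripts, held 86 of the 124 cells of cKO PD with mitotic transcripts. It took in 186 neutrophils of cKO PD against 6 of cHet PD, and 62.8% of 137 thinned ones of cKO PD held mitotic transcripts (54.1 to 70.9%). Secondary granule transcripts (Ngp, Ltf, Camp), which late precursors hold, moved with the result. They were at 42225 CPM in neutrophils of cKO PD against 5679 CPM in those of cHet PD. In epithelial cells they were at 4422 CPM in cKO PD against 48.4 CPM in cHet PD. Gland cells held them too, at 36645 CPM in cKO PD, 38193 CPM in cHet control and 13562 CPM in cKO control. They are thus not particular to precursors, and cHet PD had no gland cells. The mature sub-gate, whose cells held more mature than immature markers, also held secondary granule transcripts, at 28519 CPM in cKO PD against 1916 CPM in cHet PD. It is therefore not free of transcripts that late precursors hold. The part of these transcripts in the results was not tested. In the mature sub-gate the mitotic set summed to 828 CPM in 472 cells of cKO PD against 229 CPM in 614 cells of cHet PD, with 11 of 17 measured members higher and Anln lower, at 8.95 CPM in cKO PD (6 UMIs) against 25.9 CPM in cHet PD (17 UMIs), where 10.9% of genes were higher and 10.5% lower. In that sub-gate 95.3% of the mitotic UMIs of cKO PD lay in the richest 10% of cells, against 74.7% in cHet PD, and 15.5% of cells of cKO PD had a mitotic UMI against 16.1% of cHet PD. Neutrophils without any transcript of the immature list had 122 CPM (7 UMIs, 49.1 to 252) in 66 cells of cKO PD against 226 CPM (124 UMIs, 188 to 269) in 552 cells of cHet PD, intervals that overlap. None of the 3 members measured in this class met the size rule, where 4.44% of genes were higher and 4.65% lower. The class is picked by its lack of precursor transcripts and rests on 7 UMIs in cKO PD. It cannot decide whether mature cells differ between the libraries. Single genes are given over all neutrophils. Mki67 was at 620 CPM in cKO PD against 96.0 CPM in cHet PD. Top2a was at 410 CPM in cKO PD against 70.2 CPM in cHet PD. Kif11, the spindle motor Eg5, was at 104 CPM in cKO PD against 30.1 CPM in cHet PD. Among the mitotic genes named for all neutrophils, Cenpa, at 82.4 CPM in cKO PD against 60.2 CPM in cHet PD, did not meet the rule.

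Other genes of all neutrophils are given next. Ube2c was at 131 CPM in cKO PD against 18.6 CPM in cHet PD, and Cenpe, a kinetochore motor, at 74.9 CPM against 11.5 CPM. Several replication genes were higher too. Pclaf was at 237 CPM in cKO PD against 28.7 CPM in cHet PD, Rrm2 at 234 CPM against 44.4 CPM, Rrm1 at 119 CPM against 34.4 CPM and Pcna at 351 CPM against 119 CPM. Ccne2 was at 32.9 CPM in cKO PD against 8.6 CPM in cHet PD, while Ccne1 had 12.7 CPM against 11.5 CPM and Cdc6 8.24 CPM against 2.87 CPM. Of the other lists, 23 of 27 measured mitotic genes and 13 of 20 replication genes were higher in cKO PD, where 15.0% of all genes were, led by Incenp at 63.6 CPM against 7.16 CPM. Cdkn2d, an INK4 inhibitor, was higher at 139 CPM against 24.4 CPM, and Btg2, at 187 CPM against 509 CPM, and Btg1, at 2608 CPM against 5928 CPM, were lower. Cdkn1a, Ccnd1 and Myc did not meet the rule.

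The few neutrophils of the control libraries were not without these transcripts. In cHet control 37 cells summed to 2926 mitotic CPM (2718 to 3146), with 21.1% of the UMIs in 1 cell, and held mitotic transcripts in 21.6% of cells. In cHet PD against cHet control 21 of 27 measured members were therefore lower, where 21.9% of genes were, and none was higher, where 20.1% were. These counts use all 624 neutrophils of cHet PD, most of which lay under the depth floor of the controls. The 62 above 1500 UMIs had 1529 mitotic CPM (1344 to 1733). Neutrophils of cKO control, with 52.1% of their mitotic UMIs in 1 of 25 cells, were too few to compare.

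Fibroblasts of cHet PD stood apart among the stromal cells. Mitotic levels summed to 654 CPM (611 to 699) in 297 cells of cHet PD against 94.1 CPM (75.0 to 116) in 129 cells of cHet control, a ratio of 6.95 (5.55 to 8.80). In cKO it summed to 267 CPM in 119 cells of PD against 252 CPM in 96 cells of control, where 58.9% of the UMIs lay in 1 cell of cKO control and the rest gave 106 CPM. Of 232 thinned cells of cHet PD, 8.19% held mitotic transcripts (5.00 to 12.5%), against 0.775% of 129 of cHet control (0.0196 to 4.24%). In the cHet comparison 21 of 30 measured members were higher by the size rule, where 9.16% of 9014 genes were, and none was lower, where 13.4% were. In cKO PD against cKO control none of 6 met it, where 8.87% of genes were higher and 16.5% lower, and in cKO PD against cHet PD 9 of 27 were lower, where 6.50% of genes were, and none was higher, where 4.38% were. Between the controls 1 of 6, Ube2c, was higher in cKO control than in cHet control, where 6.06% of genes were higher and 6.0% lower. Epithelial markers were more frequent in the mitotic fibroblasts of cHet PD, with a mean of 2.74 of 12 per cell against 1.65 in the others, and their part in the result was not tested. The 171 fibroblasts of cHet PD with at most 1 such marker had 803 CPM, and cHet control held too few such cells to compare.

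Of 19 measured mitotic members, 18 were higher in fibroblasts of cHet PD. Top2a was at 68.2 CPM in cHet PD against 24.6 CPM in cHet control, and at 31.7 CPM in cKO PD against 24.7 CPM in cKO control. Mki67 was at 40.1 CPM in cHet PD against 3.36 CPM in cHet control, and at 26.4 CPM in cKO PD against 13.9 CPM in cKO control. Cdk1, the mitotic kinase, was at 47.7 CPM in cHet PD against 10.1 CPM in cHet control, and at 23.8 CPM in cKO PD against 12.4 CPM in cKO control. Each of these was highest in cHet PD. Ube2c was at 46.2 CPM in cHet PD against 2.24 CPM in cHet control, Anln at 45.4 CPM against 7.84 CPM and Prc1 at 37.9 CPM against 3.36 CPM. These 3 act late in mitosis. Pcna lay at 136 to 199 CPM, Rrm1 at 23.5 to 44.9 CPM and Mcm4 at 29.0 to 40.2 CPM in the 4 libraries, while Pclaf was at 47.0 CPM in cHet PD against 12.3 CPM in cHet control. Cdc6, Ccne1 and Ccne2 did not exceed 7.92 CPM.

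Of 10 G1 genes measured in fibroblasts, 2 were higher and 2 lower in cHet PD against cHet control, where 9.16% of all genes were higher and 13.4% lower. Of 7 measured in cKO PD against cKO control, 4 were higher and 2 lower, where 8.87% were higher and 16.5% lower. Cdk6 was higher in PD, at 76.5 CPM in cHet PD against 14.6 CPM in cHet control, and at 76.6 CPM in cKO PD against 15.5 CPM in cKO control. Myc was higher in PD too, at 519 CPM in cHet PD against 236 CPM in cHet control, and at 325 CPM in cKO PD against 35.6 CPM in cKO control. Ccnd3 was lower in both, at 37.1 CPM in cHet PD against 161 CPM in cHet control, and at 55.4 CPM in cKO PD against 122 CPM in cKO control. Ccnd1 was at 72.7 CPM in cHet PD against 172 CPM in cHet control, past the rule, and at 148 CPM in cKO PD against 85.0 CPM in cKO control, within it. Cdkn1a was at 54.1 CPM in cKO control against 223 CPM in cHet control, past the rule.

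In endothelial cells cKO control was the low library. The mitotic set summed to 430 CPM (400 to 462) in 542 cells of cHet PD against 340 CPM (296 to 389) in 101 cells of cHet control, and to 385 CPM (345 to 429) in 321 cells of cKO PD against 107 CPM (89.2 to 126) in 191 cells of cKO control. A single cell held 48.6% of the mitotic UMIs of cHet control, and without it that library had 177 CPM. Mitotic transcripts were held by 5.19% of 385 thinned cells of cHet PD against 1.98% of 101 of cHet control, and by 3.85% of 208 of cKO PD against 0.524% of 191 of cKO control. For cKO PD against cKO control 9 of 19 measured members were higher, where 6.23% of 8561 genes were, and in cHet PD against cHet control 5 of 31, where 8.69% were. No member was lower in either, where 9.10% of genes were lower in cKO and 8.68% in cHet. In cKO control against cHet control 6 of 15 were lower, where 1.31% of genes were, and none was higher, where 1.55% were, and the count of 6 includes the UMIs of the single rich cell.

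Named endothelial genes are given next. Mki67 was at 42.3 CPM in cHet PD against 51.9 CPM in cHet control, and at 44.7 CPM in cKO PD against 12.1 CPM in cKO control. Top2a was at 38.9 CPM in cHet PD against 50.4 CPM in cHet control, and at 37.8 CPM in cKO PD against 12.1 CPM in cKO control. Ccna2, the cyclin of S and G2 phase, was at 28.0 CPM in cHet PD against 33.1 CPM in cHet control, and at 20.6 CPM in cKO PD against 4.04 CPM in cKO control. In these 3 genes cKO control was the low library. Cenpa was at 44.6 CPM in cHet PD against 12.6 CPM in cHet control, and at 11.5 CPM in cKO PD against 9.70 CPM in cKO control, and it was the 1 member that met the rule in cKO PD against cHet PD, where 2.75% of genes were lower and 2.01% higher. Cdk1 was at 25.2 CPM in cKO PD against 4.04 CPM in cKO control, and Kif23 at 17.8 to 29.8 CPM in all libraries. Pcna was at 431 CPM in cHet PD against 301 CPM in cHet control, and at 391 CPM in cKO PD against 299.8 CPM in cKO control, and Rrm1, Mcm4 and Mcm6 lay between 25.2 and 62.9 CPM. Gadd45a was higher by the rule in PD of both genotypes, at 176 CPM in cHet PD against 42.5 CPM in cHet control, and at 175 CPM in cKO PD against 47.7 CPM in cKO control. Ccnd3 was lower in PD in both, while Cdkn1a, Ccnd1 and Myc did not meet the rule.

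Erythroid cells of cHet PD had the highest mitotic level of the classes with at least 30 cells, at 27621 CPM in 35 cells, and 31 of 31 thinned ones held mitotic transcripts. Mki67 alone was at 10636 CPM there and Rrm2 at 1891 CPM. The other libraries held 2 to 16 erythroid cells and were not compared. The 21 cells of cHet PD with at most 1 epithelial marker had 28665 CPM. These 35 cells, 0.390% of the library, held 7.19% of its mitotic UMIs. Mural cells had 233 CPM in 82 cells of cKO PD against 86.7 CPM in 41 cells of cKO control, but 76.5% of the mitotic UMIs of cKO PD lay in 1 cell, and the rest gave 56 CPM.

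**Figure D5:**
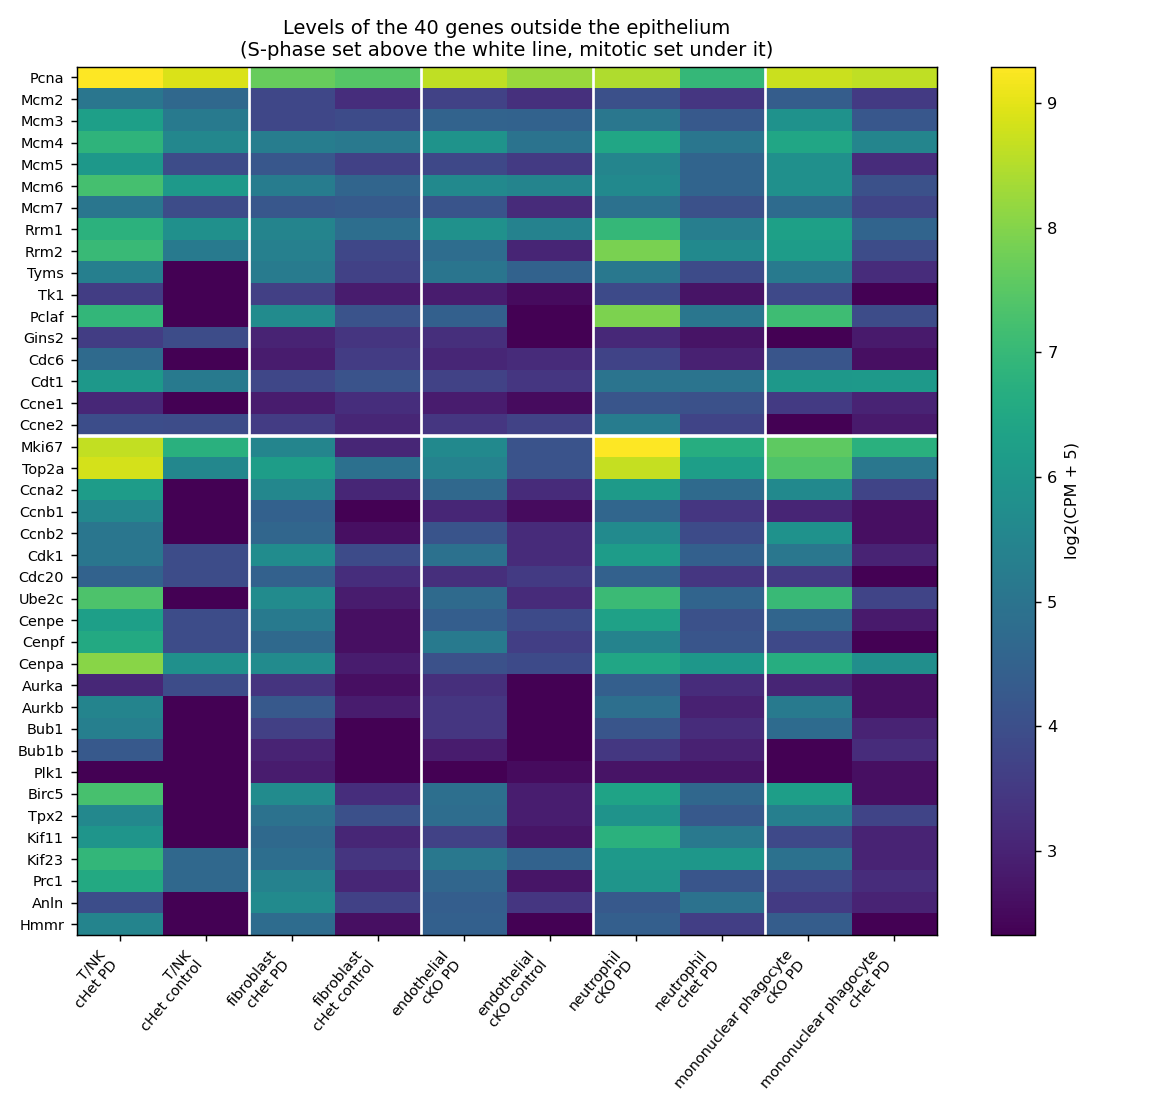
Levels of the 40 members, as log2 of CPM plus 5, in 5 comparisons outside the epithelium, S-phase genes above the white line and mitotic genes under it; colours are to be compared along a row, since levels of different genes are not scaled for length. In each pair the left column is the brighter one over most mitotic rows, as for Mki67 in neutrophils, at 620 CPM in cKO PD against 96 CPM in cHet PD.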

How the data were processed

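The authors deposited 1 matrix of unique molecule (UMI) counts per library. Per the submitters' processing notes, fastp, STARsolo 2.7.10a and the mm10 build were used, and what each did is not given in the sources used here. The counts were used as deposited, and no doublet caller was run. Barcodes with at least 200 genes and at most 20% mitochondrial UMIs were kept. Cells were gated into 16 classes by 12 markers each and into sub-gates by 10, with a margin of 1 marker. Raw counts were summed per class and library.

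Each group was 1 library, so nothing was tested. Levels carry exact Poisson intervals, shares exact Clopper-Pearson intervals and ratios exact conditional binomial intervals, at 95%, which cover counting error only. Classes with under 30 cells were not compared, except for Itga9 in resident macrophages, a minimum chosen after cell counts were seen. The members and gene lists were chosen with earlier results of these data known. In each class, values are given for the 4 S-phase and 6 mitotic members with the highest mean CPM, for Mki67, Pcna, Ccne1, Ccne2 and Cdc6, and for members past the size rule against the direction of most. Of the other lists, counts, the 2 largest changes each way and Cdkn1a, Ccnd1 and Myc are given; other genes named were chosen after their values were seen.

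The size rule was checked on simulated counts, drawn independently, with changes placed in well-counted genes only. The check does not cover UMIs gathered in few cells or differences near the limits of the rule. Python 3.11.15, numpy 2.4.6, scipy 1.17.1, pandas 2.3.3 and matplotlib 3.10.9 were used, and edgeR 4.0.16 under R 4.3.3 gave TMM factors for 1 alternative scaling. The other alternatives changed the UMI floor, the thinning, the mitochondrial cap, the gate margin, the members a cell must hold and the filter on UMIs. Leaving out Pcna, the richest cell, or cells with epithelial or primary granule transcripts was chosen after seeing the data.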

Additional observations from a re-analysis of the deposited data

Results flagged for a closer look

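Several epithelial results had opposite directions in the 2 genotypes for PD over control. With 1 library per group the difference between the genotypes was not tested. The summed mitotic level had a ratio of 1.39 in cHet and 0.905 in cKO over all epithelial cells, and of 1.24 in cHet and 0.918 in cKO in basal cells. Among S-phase members over all epithelial cells, Rrm1 had a ratio of 0.826 in cHet and 1.12 in cKO, and Cdt1 of 0.857 in cHet and 1.23 in cKO.

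Mitotic members went the other way. Of the cyclins and their kinase, Ccna2 had 1.205 in cHet and 0.897 in cKO, Ccnb1 1.37 in cHet and 0.814 in cKO, and Cdk1 1.31 in cHet and 0.729 in cKO. Of the anaphase-promoting factors, Cdc20 had 2.21 in cHet and 0.895 in cKO, and Ube2c 1.65 in cHet and 0.704 in cKO. Cenpf had 1.08 in cHet and 0.699 in cKO, Kif11 1.13 in cHet and 0.731 in cKO, Kif23 1.09 in cHet and 0.833 in cKO, and Anln 1.77 in cHet and 0.889 in cKO. Cdc20 in cHet was the 1 of these genes that met the size rule.

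Cells to which no class was given also held mitotic transcripts, and they enter no comparison. The share was 14.3% of 314 thinned cells of cKO PD (10.6 to 18.7%) against 4.72% of 318 cells of cKO control, and 10.5% of 267 cells of cHet PD against 5.56% of 180 cells of cHet control.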

How the results depend on the processing

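Of 414 alternative values for 77 results, 272 moved by less than their counting interval or, for counts of genes, by less than 1.5 times, 138 moved by more, and 4 turned a log2 ratio whose interval left out 0. Over all 37 log2 ratios, 10 changed sign under at least 1 alternative. All values that follow are log2 ratios of PD over control unless another quantity is named. Those 4 were in the share of cells with cell cycle transcripts: without thinning the epithelial value was -0.18 in cHet (0.32 with thinning) and -0.41 in cKO (0.15), the fibroblast value in cHet was -0.41 (1.52), and with 1 mitotic or 2 S-phase members required the epithelial value in cKO was -0.0043. Epithelial shares themselves, for cHet PD, cHet control, cKO PD and cKO control, were 25.1, 20.2, 25.8 and 23.3%. They were 20.2, 15.4, 20.7 and 18.2% when thinned to 1000 UMIs, 42.7, 48.3, 38.1 and 50.5% without thinning, 33.8, 31.3, 33.9 and 34.0% with 1 mitotic or 2 S-phase members and 16.9, 11.9, 17.3 and 15.0% with 3 members. For the summed mitotic level of epithelial cells, TMM scaling gave 0.60 in cHet and -0.11 in cKO, and -0.22 for cKO PD over cHet PD and 0.44 for cKO control over cHet control. A stricter gate gave -0.098 in cKO and -0.074 for cKO PD over cHet PD, and no mitochondrial cap gave 0.44 between the controls. For the S-phase level, TMM scaling gave -0.20 in cHet, 0.0098 in cKO, 0.24 for cKO PD over cHet PD and -0.022 between the controls, against -0.02, 0.31 and 0.01 unscaled for the last 3, so that the near-zero ratios in cKO and between the controls changed sign. Leaving out Pcna gave -0.41, 0.024 and 0.44 for the first 3 of these, a stricter gate 0.35 for cKO PD over cHet PD, and no mitochondrial cap -0.026 between the controls. Without Mki67, Top2a and Ccna2, S-phase UMIs per mitotic UMI were 0.61 in cHet PD, 1.22 in cHet control, 0.88 in cKO PD and 0.83 in cKO control. In cells above 1500 UMIs the mitotic log2 ratio of neutrophils, cKO PD over cHet PD, was 0.86 and 7 members met the size rule in place of 24. In cKO PD against cHet PD, phagocyte members past the rule numbered 3 with a stricter gate and 22 with no filter on UMIs in place of 10, and T and NK members 5 with a stricter gate in place of 9. In endothelial cells of cKO PD against cKO control 14 met it with no filter in place of 9. The causes of these changes were not tested. No paired analysis was possible because with 1 library in every group the labels hold no replicate numbers to match. The classes compared outside the epithelium rested on 33 to 746 cells.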
